A study of Mus musculus with 98 samples.

Results

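Among single innate lymphoid cells (ILCs) sorted from the intestine of wild-type mice, cells with and without transcripts of the MHC class II beta chain gene H2-Ab1 were compared. ILCs are lymphocytes that lack rearranged antigen receptors. Cells were selected on H2-Ab1: 9 of 23 cells had an H2-Ab1 level of 1 TPM or more (an abundance per transcript length, scaled to the same total in every profile) and are called positive, and 14 cells were below that limit and are called negative. The 23 cells were obtained from 31 deposited wild-type profiles by averaging profiles that carry the same cell number. Wild-type cells (WT-ILC) were CD45.2+, Lin- and CD127+ and came from the gut of C57BL/6 mice aged 8 weeks. The other 67 of the 98 profiles in the series were R9-ILC cells, regenerated donor cells that were CD45.2+, GFP+, Lin- and CD127+ and were taken from the gut of Rag2-/-Il2rg-/- recipients 3 weeks after transplantation. Each profile is 1 cell and no animal is named, so the wild-type cells count as 1 sample. Differences are therefore descriptions of these cells, with no test, and every SD is a spread over cells.

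MHC class II molecules carry peptides from engulfed proteins to the cell surface, where CD4+ T cells read them. Each is a pair of an alpha and a beta chain, H2-Aa with H2-Ab1 in the I-A molecule and H2-Ea with H2-Eb1 in the I-E molecule. Cd74, the invariant chain, holds the groove until the complex reaches a lysosome-like compartment. The products of H2-DMa and H2-DMb1 then help to load peptide, and those of H2-Oa and H2-Ob restrain them. Transcription depends on the coactivator CIITA, which docks on RFX, CREB and NF-Y factors bound to the X and Y boxes of the promoters. In the gut, ILC3 cells are known to carry MHC class II and to act on CD4+ T cells that recognise bacteria.

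The promoters of H2-Aa and H2-Eb1, MHC class II chain genes detected together with H2-Ab1 below, are shown because both hold the X and Y letters in the classic order. Each stretch covers the 250 bases before the RefSeq start site (RefSeq, build GRCm38.p6), 5′ to 3′ on the gene's own strand. That of H2-Aa lies at chr17:34287824-34288073 on the minus strand, and that of H2-Eb1 at chr17:34305617-34305866 on the plus strand. Capitals mark the core of the X box, GCAAC, and the Y box with its preceding base, GATTGG.
H2-Aa promoter: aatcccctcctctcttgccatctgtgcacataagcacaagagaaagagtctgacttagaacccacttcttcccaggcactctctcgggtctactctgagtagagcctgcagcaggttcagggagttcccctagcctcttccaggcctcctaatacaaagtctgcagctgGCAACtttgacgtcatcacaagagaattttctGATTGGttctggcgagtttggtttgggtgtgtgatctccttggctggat
H2-Eb1 promoter: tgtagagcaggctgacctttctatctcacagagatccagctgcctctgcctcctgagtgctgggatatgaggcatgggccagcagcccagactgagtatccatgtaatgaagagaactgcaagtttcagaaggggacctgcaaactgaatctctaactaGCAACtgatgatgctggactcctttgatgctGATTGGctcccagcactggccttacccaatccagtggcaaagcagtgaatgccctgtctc
In H2-Aa the X core began 81 bases before the start site, with 27 bases between the marked letters. In H2-Eb1 it began 91 bases before the start site, with 26 bases between them. The promoters of H2-Eb2, H2-Oa and H2-Ob held the same ordered pair, whereas neither listed promoter of H2-DMa, nor those of H2-DMb1 and H2-DMb2, held it. Over 32544 distinct promoters, 37.4% held CCAAT on either strand and 35.1% held GCAAC on either strand. GCAAC followed by GATTGG on the gene's strand was held by 99 (0.304%). The search for the pair allowed a wider range of gaps than the 26 and 27 bases above. It also used the full listed promoters, 300 bases long for H2-Aa and H2-Eb1, of which 250 are shown. The spacing was chosen after the sequences were seen, and a match describes letters, not bound factors.

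Several cells need to be named before the results. The single profile of cell 16 was nearly the same as both profiles of cell 32, with Pearson r of 0.967 and 0.964 over genes detected in both profiles, and shared 81.4% and 82.9% of their detected genes. Cell 16 is nevertheless positive and cell 32 is listed at 0 for H2-Ab1, so that they stand on opposite sides of the comparison. Profiles averaged under the same number had r from 0.844 to 0.995 and shared 24.01% to 92.2% of their genes, so that some of these joins are less certain than others. Of the 9 positive cells 1 was an average of 2 profiles, against 7 of the 14 negative cells. Positive cells had 1726 to 7518 genes at 1 TPM or more (median 1997), and negative cells had 793 to 5261 (median 2027.5), with the highest numbers in positive cell 2 and negative cell 29. TPM keeps no sequencing depth. Exact zeros may also be failed estimates: Gapdh, a glycolysis gene that cells generally use, was listed at 0 in 5 of 9 positive cells and 4 of 14 negative cells.

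H2-Ab1 (chr17:34257689-34269419, plus strand) varied widely among the cells it selected. Its TPM was 2189 in cell 23, 1991 in cell 1, 448 in cell 22, 168 in cell 2, 33.1 in cell 30, 31.8 in cell 5, 14.7 in cell 16, 9.65 in cell 6 and 1.97 in cell 15. In the negative cells it was 0.605 in cell 17 and 0.263 in cell 29, and the other 12 were listed at 0. The limit therefore fell between cell 15, whose profiles read 3.94 and 0 TPM, and cell 17, whose profiles read 1.21 and 0 TPM. As a percentage of B2m, the light chain of MHC class I, H2-Ab1 was 13.4% in cell 23 and 7.54% in cell 1 but 0.083% in cell 16, which had more B2m than cell 23.

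H2-Aa, the alpha chain that pairs with H2-Ab1, was largely found in the same cells. It had 2626 TPM in cell 1, 707 in cell 22, 246 in cell 2, 17.97 in cell 6 and 9.45 in cell 30, and was listed at 0 in positive cells 23, 5, 16 and 15. Among the 14 negative cells it was above 0 in cell 17 alone, at 0.506 TPM. It was thus detected, at 1 TPM or more, in 5 of 9 positive cells (55.6%, exact 95% interval 21.2 to 86.3%, which covers counting error only) and in 0 of 14 negative cells (upper bound 23.2%). The mean log2(TPM + 1) of H2-Aa was 4.05 ± 4.53 in positive cells and 0.04 ± 0.16 in negative cells (SD, n = 9 and 14), a difference of 4.003 that lay between 3.09 and 4.51 when each cell was left out in turn. The groups still overlap, since 4 positive cells are at 0.

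H2-Eb1, the beta chain of I-E, was found in 4 positive cells, at 619 TPM in cell 23, 533 in cell 1, 449 in cell 22 and 49.4 in cell 2. The other 5 positive cells were listed at 0, and the negative cells had at most 0.671 TPM, in cell 25. With 4 detected cells it did not reach the filter of 5 used for the comparison across genes. Its difference in mean log2(TPM + 1) was 3.59. The 4 cells with H2-Eb1 are the 4 with H2-Ab1 at 100 TPM or more, and none of the positive cells below that level had it.

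Cd74 did not follow H2-Ab1 in the same way. It had 3066 TPM in cell 22, 2517 in cell 23, 897 in cell 1, 53.8 in cell 2, 35.9 in cell 6 and 15.8 in cell 15, and was listed at 0 in positive cells 30, 5 and 16. Negative cells carried it as well, at 478 TPM in cell 14, 363 in cell 17, 300 in cell 11, 180 in cell 7 and 168 in cell 31. It was detected in 6 of 9 positive cells and 11 of 14 negative cells. The difference in mean log2(TPM + 1) was 0.85, with SDs of 4.77 in positive and 3.22 in negative cells. Leaving out cell 22 or cell 23 took it to 0.06 or 0.10, and leaving out cell 30 or cell 5 to 1.51. At high H2-Ab1 the contrast was plainer: the 4 cells at 100 TPM or more had a median Cd74 of 1707 TPM, against 0 in the other 5 positive cells and 18.7 in negative cells. This order was not particular to MHC class II: median B2m was 16190, 1285 and 4360 TPM in the same 3 sets. It did not hold for every gene, since the cytokine receptor gene Il23r had medians of 14.5, 13.2 and 82.3 TPM.

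**Figure D1:**
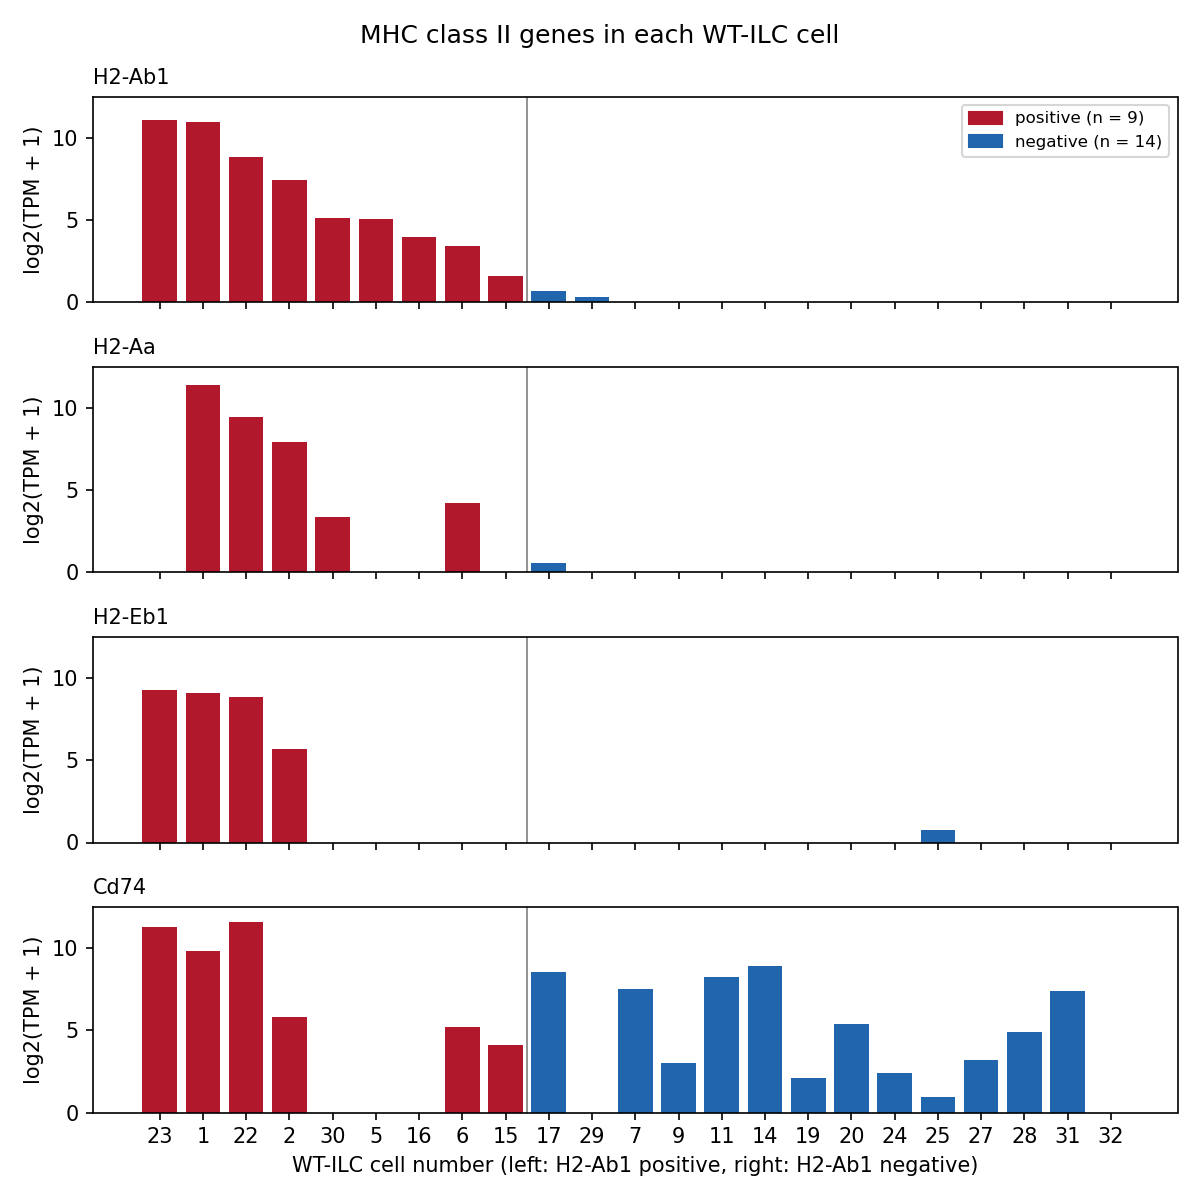
MHC class II genes in each wild-type cell as log2(TPM + 1), 1 bar per cell, with the 9 positive cells at left and the 14 negative cells at right, each ordered by H2-Ab1. H2-Aa and H2-Eb1 bars stand almost wholly on the left, while Cd74 is seen in 6 positive and 11 negative cells.

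The remaining MHC class II genes were listed above 0 in few cells. H2-Oa, which restrains peptide loading, had 724 TPM in positive cell 22 alone, against 625.1 TPM in negative cell 14, 317 in cell 11, 32.8 in cell 31 and 11.2 in cell 20 (difference −0.82). H2-DMa was detected in positive cell 15 at 5.30 TPM, against 126 TPM in negative cell 29 and 4.48 in cell 9. H2-DMb1, H2-DMb2, H2-Eb2 and H2-Ob were not detected in any cell. Of the 9 listed members besides H2-Ab1, 3 passed the filter, and 1 of these (H2-Aa) differed by at least 2 on the log2 scale. Their median difference was 0.85, beside 0.03 over all 4051 genes used. That median is Cd74's own value. H2-Aa passed the filter through positive cells alone, and H2-Aa and H2-Oa were each detected in only 5 cells. Without cell 1 H2-Aa left the list and the median was −0.20. Without cell 14 H2-Oa left it and the median was 2.59. Cd74 itself stayed between 0.06 and 1.51 when each cell was left out.

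Most factors that drive MHC class II transcription were detected in too few cells to be compared. Ciita was listed at 0 in all 9 positive cells and had 2.91 TPM in negative cell 29. Rfxank, an RFX subunit, was detected in 5 of 9 positive and 6 of 14 negative cells, with a difference of 1.23 between SDs of 3.44 in positive and 2.95 in negative cells. Rfxap, another RFX subunit, differed by −0.85 and Nfyb, an NF-Y subunit, by 0.63. Rfx5 was detected in 1 positive cell and no negative cell, and March1, a ubiquitin ligase that removes MHC class II from the surface, in none. Of 10 listed regulators 3 passed the filter and none reached a difference of 2. Over all genes 4.59% were called higher and 2.67% lower, so that the lack of a call among 3 genes says little. Among lysosomal genes that process antigen, 1 of 7 was called higher and 0 lower: Lamp2, a lysosomal membrane protein, was detected in 6 of 9 positive and 4 of 14 negative cells (difference 2.75). The protease genes Ctss and Ctsh differed by 0.93 and 1.69, and Ctsb and Ctsd by −1.33 and −1.02.

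Of 10 costimulatory genes, 5 were listed at 0 in every wild-type cell. These include Cd80, Cd86 and Cd40, which give T cells their second signal on professional antigen-presenting cells. Icam1, an adhesion molecule that binds T cells, alone passed the filter. It was detected in 6 of 9 positive and 6 of 14 negative cells, with at most 598 TPM in positive cells and at most 1951 TPM in negative cells, and differed by −0.12. None of 11 MHC class I genes used differed by 2. B2m had a median of 9018 TPM in positive and 4360 TPM in negative cells (difference 0.72), and H2-D1, a class I heavy chain, differed by 0.97. Of 9 interferon response genes used none reached 2: Irf8, a transcription factor, stood at −1.95 and Ifngr2, a receptor chain for interferon gamma, at 1.94.

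Over all genes, 186 of 4051 (4.59%) were higher in positive cells by at least 2 in mean log2(TPM + 1), and 108 (2.67%) were lower by as much. By detection, 82 genes (2.02%) were found in a share of positive cells at least 40 percentage points above the share of negative cells, and 19 (0.469%) in a share at least 40 points below. Both rules held together for 44 genes higher and 14 genes lower. Apart from H2-Ab1 no gene separated the groups without overlap, and 5 genes, all higher in positive cells, had a difference above the SD of both groups. Those were Psma6, Rnasek, Eif1a, 4921524J17Rik and 4930523C07Rik. These counts depended on single cells. Without cell 15, 287 genes were higher, and without cells 2, 16, 20 or 24 in turn 202, 193, 169 or 165 were lower. By detection, 136, 125 or 159 were higher without cells 5, 15 or 16. Lower by detection were 43 without cell 2, 33 without cell 16, 36 without cell 20, 29 without cell 32, 10 without cell 29, and 31 without cell 7, 14, 24 or 30.

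The 15 largest differences upward were in genes of varied roles. Predicted and ribosomal protein genes aside, they were taken from genes detected in at least 60% of positive cells that kept their sign whichever cell was left out and in profiles with the title ending 2. Of these 15, 1 (Hprt) is on the housekeeping list and 1 (Rbp2) on the enterocyte list. Of 20 housekeeping genes used, 1 was called higher and 0 lower, 8 stood above 0 and 12 below, and their median difference was −0.15. Psma6, a proteasome subunit, had 1406 TPM at most in positive cells with a median of 58.6, against a highest value of 781 and a median of 0 in negative cells, and was detected in 8 of 9 and 5 of 14 cells (difference 4.29). Gsto1, a glutathione transferase, was found in all 9 positive cells, from 1.60 to 17228 TPM with a median of 497, against 7 of 14 negative cells with a median of 1.24 (difference 4.35). Rnasek, found in all 9 positive and 11 of 14 negative cells, had a median of 251 TPM in positive and 6.62 TPM in negative cells (difference 3.72). Zmat5, a spliceosome component, was detected in 6 of 9 positive and 2 of 14 negative cells (difference 4.27). The ESCRT gene Tsg101 was seen in 6 of 9 and 2 of 14 (difference 3.61), and the purine salvage enzyme Hprt in 9 of 9 and 11 of 14 (difference 3.46). Ndufb4 and Ndufc2 of respiratory complex I differed by 3.68 and 3.37, and Chchd10 and Chchd1, mitochondrial proteins, by 3.86 and 3.28. Without cell 5 the differences of Ndufc2 and Chchd1 were 2.16 and 2.03. Rbp2, Shfm1, Gltp, Ric8 and Anapc13 completed the 15, with differences from 3.22 to 4.24. All 15 exceeded 2 whichever cell was left out.

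Among genes lower in positive cells, Taldo1, an enzyme of the pentose phosphate pathway, came first. Its median was 26.9 TPM in positive and 489 TPM in negative cells, with detection in 7 of 9 and 13 of 14 cells (difference −3.61). Glrx5, a mitochondrial iron-sulfur cluster protein, had medians of 4.84 TPM in positive and 154 TPM in negative cells (difference −3.24). Spop, a ubiquitin ligase adaptor, reached 4.80 TPM at most in positive cells, against a median of 15.2 TPM and a highest value of 806 in negative cells (difference −3.24). Gpx4, which protects membranes from lipid peroxides, had medians of 9.97 TPM in positive and 310 TPM in negative cells (difference −3.01). Dap, Wdr1, Acaa1a, Rnf4, Pdia4, Laptm4b, Mterfd1, Dcaf13, Polr2j, Dnajc15 and Dnajc8 followed, from −3.03 to −2.68. All 15 of these genes stayed below −2 whichever cell was left out, and all overlapped between the groups.

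**Figure D2:**
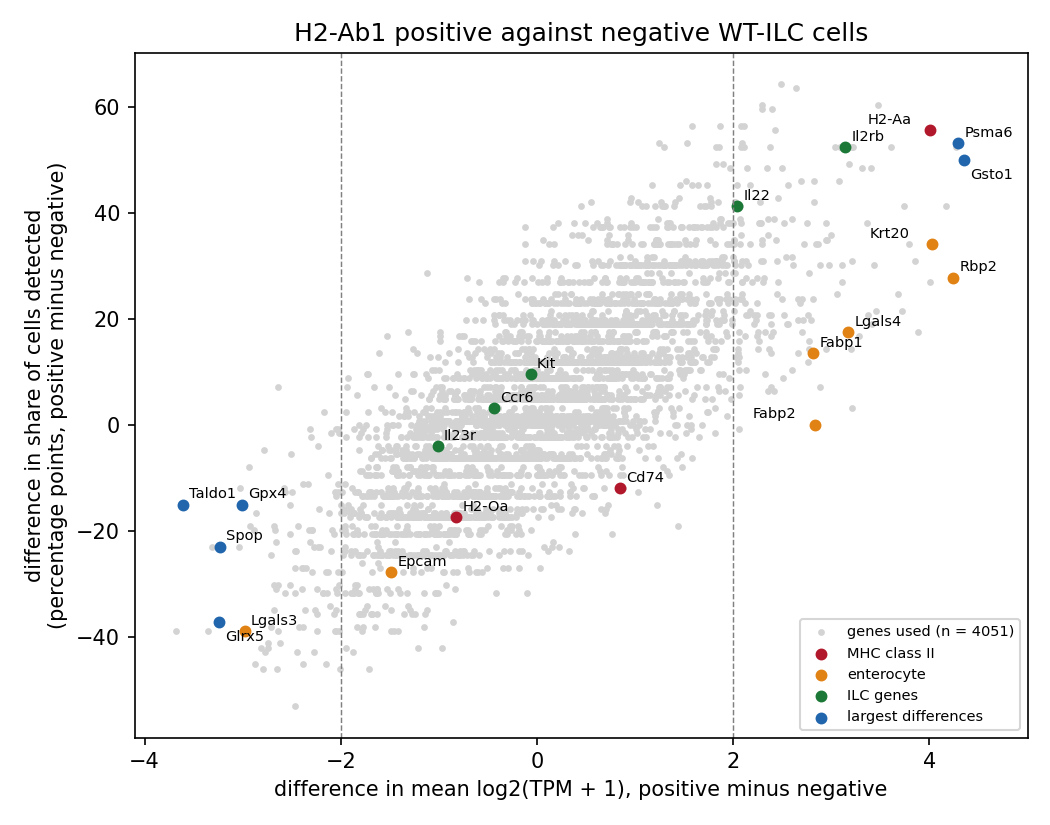
Each of the 4051 genes used, by its difference in mean log2(TPM + 1) (horizontal) and in the share of cells detecting it (vertical, percentage points), positive minus negative. Dashed lines mark −2 and 2. H2-Aa lies at the upper right with Psma6 and Gsto1, while Cd74 and ILC3 genes such as Il23r and Kit lie between the lines.

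Genes of ILCs were found in both groups, but at levels that varied widely among cells. The 18 genes of the core ILC list took 0.0253% to 2.01% of TPM in positive cells (median 0.179%). In negative cells they took 0.0118% to 1.69% (median 0.425%). Between 11 and 14 of them were detected per positive cell and between 5 and 16 per negative cell. Il7r, which encodes the CD127 used in the sort, was detected in all 9 positive and all 14 negative cells, with medians of 108 TPM in positive and 397 TPM in negative cells, and Id2, a regulator that ILCs need, had medians of 788 and 1562 TPM in positive and negative cells. The surface genes of CCR6+ ILC3 cells were on both sides: Ccr6, a chemokine receptor, differed by −0.44, Il23r, a cytokine receptor, by −1.01 and Kit, a growth factor receptor, by −0.06. The ILC3 genes Tmem176b and Ncoa7, found in all 23 cells, differed by −0.33 and −0.12. These differences pool unlike positive cells. In the 4 with H2-Ab1 at 100 TPM or more, the medians of Tmem176b and Ncoa7 were 4390 and 1389 TPM. They were 161 and 30.7 TPM in the other 5 positive cells and 1063 and 140 TPM in negative cells. Of 20 genes of the CCR6+ ILC3 list used, 1 was called higher and 0 lower, and their median difference was −0.12.

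That 1 gene was Il22, a cytokine that acts on gut epithelium. It had 309 TPM in cell 16, 40.5 in cell 30, 19.6 in cell 5, 17.6 in cell 6 and 5.16 in cell 2, and was listed at 0 in positive cells 23, 1, 22 and 15. In negative cells it had 270 TPM in cell 32 and 1.44 in cell 14, and was below 1 TPM in the other 12. The difference of 2.04 was 1.35 without cell 16 and −1.05 when the limit for H2-Ab1 was 100 TPM. The highest values on the 2 sides come from the near-identical cells 16 and 32.

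Il2rb, the receptor chain for IL-2 and IL-15, was more often found in positive cells. It had 513 TPM in cell 23, 351 in cell 22, 77.3 in cell 16, 23.2 in cell 5, 10.4 in cell 1 and 8.66 in cell 2, and was listed at 0 in positive cells 30, 6 and 15. Negative cells had 64.9 TPM in cell 32, 8.49 in cell 28 and under 1 TPM elsewhere. Detection was thus 6 of 9 positive cells (66.7%) and 2 of 14 negative cells (14.3%), and the difference of 3.14 stayed between 2.51 and 3.63 when any 1 cell was left out. Il17re, a receptor chain for IL-17C, was detected in 7 of 9 positive and 3 of 14 negative cells (difference 2.08). Itgb2, the beta chain of leukocyte integrins, had 684 TPM in cell 1, 551 in cell 22 and 394 in cell 16, against 411 TPM in negative cell 32 (difference 2.09, which was 1.41 without cell 1). Tox, a regulator of ILC development, differed by 1.97 and Rora by 1.46. Ncr1, a receptor of NCR+ ILC3 and of NK cells, was detected in 2 positive and 3 negative cells, among them cells 16 and 32 at 1828 and 2142 TPM. Tbx21 was detected in 1 positive cell and 2 negative cells, and Eomes and Ifng, genes of ILC1 or NK cells, in none.

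**Figure D3:**
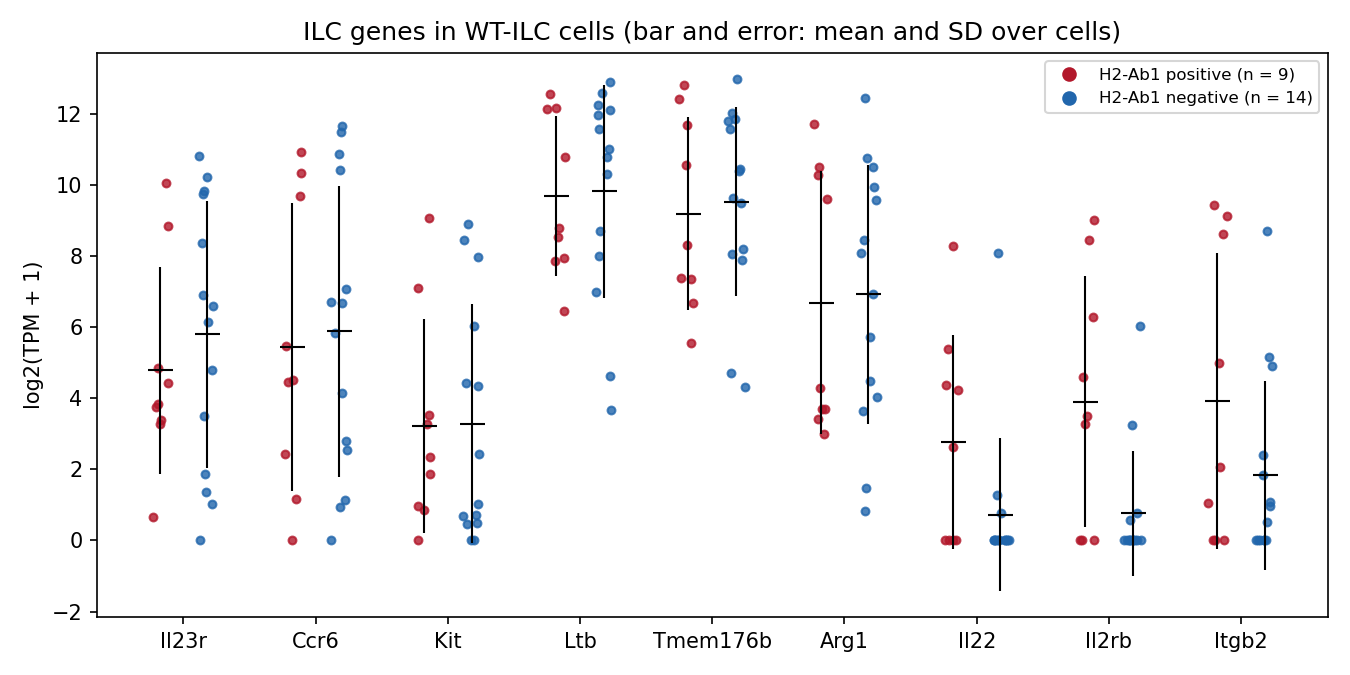
ILC genes in each wild-type cell as log2(TPM + 1), with positive cells left of negative cells for each gene; black marks give the mean and SD over cells. Il23r, Ccr6, Kit, Ltb, Tmem176b and Arg1 overlap broadly, while Il2rb is at or near 0 in 12 of 14 negative cells.

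Transcripts of gut epithelium were abundant in many of the sorted cells and more so in the positive ones. Of 20 enterocyte genes used, 7 were called higher and 1 lower, with a median difference of 1.67 beside 0.03 over all genes. Krt20, a keratin of mature enterocytes, had 9993 TPM in cell 6, 3085 in cell 30, 965 in cell 2 and 886 in cell 23, against at most 71.0 TPM in negative cells (difference 4.02). Rbp2, which carries retinol in enterocytes, had 29773 TPM in cell 6, 15470 in cell 15 and 11556 in cell 2, against at most 1466 TPM in negative cells (difference 4.24). Fabp2 and Fabp1, which bind fatty acids, differed by 2.83 and 2.81, and Lgals4 by 3.18. In the other direction Lgals3 stood at −2.98, and Epcam, the epithelial adhesion molecule, at −1.49 with detection in 2 of 9 positive and 7 of 14 negative cells. Fabp1 was 1.96 without cell 2 and 1.87 without cell 5.

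The epithelial list took 0.00158% to 22.9% of TPM in positive cells (median 8.08%) and 0.00218% to 10.9% in negative cells (median 0.286%). It reached 10% or more in 4 of 9 positive cells (30, 2, 6 and 15) and in 2 of 14 negative cells. Between 4 and 24 of its 25 members were detected per positive cell (median 11), and between 2 and 24 per negative cell (median 9.5). The 4 cells with H2-Ab1 at 100 TPM or more differed widely in this share, with 2.47% in cell 23, 0.00158% in cell 1, 0.04% in cell 22 and 14.6% in cell 2. In the 5 positive cells with H2-Ab1 under 100 TPM, the median of Fabp2 was 36012 TPM, against 5574 TPM in the other 4 positive cells and 642 TPM in negative cells. The median difference of the list was 1.22 without the cells of over 4000 genes, 0.74 without cell 2 and 2.37 without cell 1. The part of these transcripts in the other differences was not tested.

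**Figure D4:**
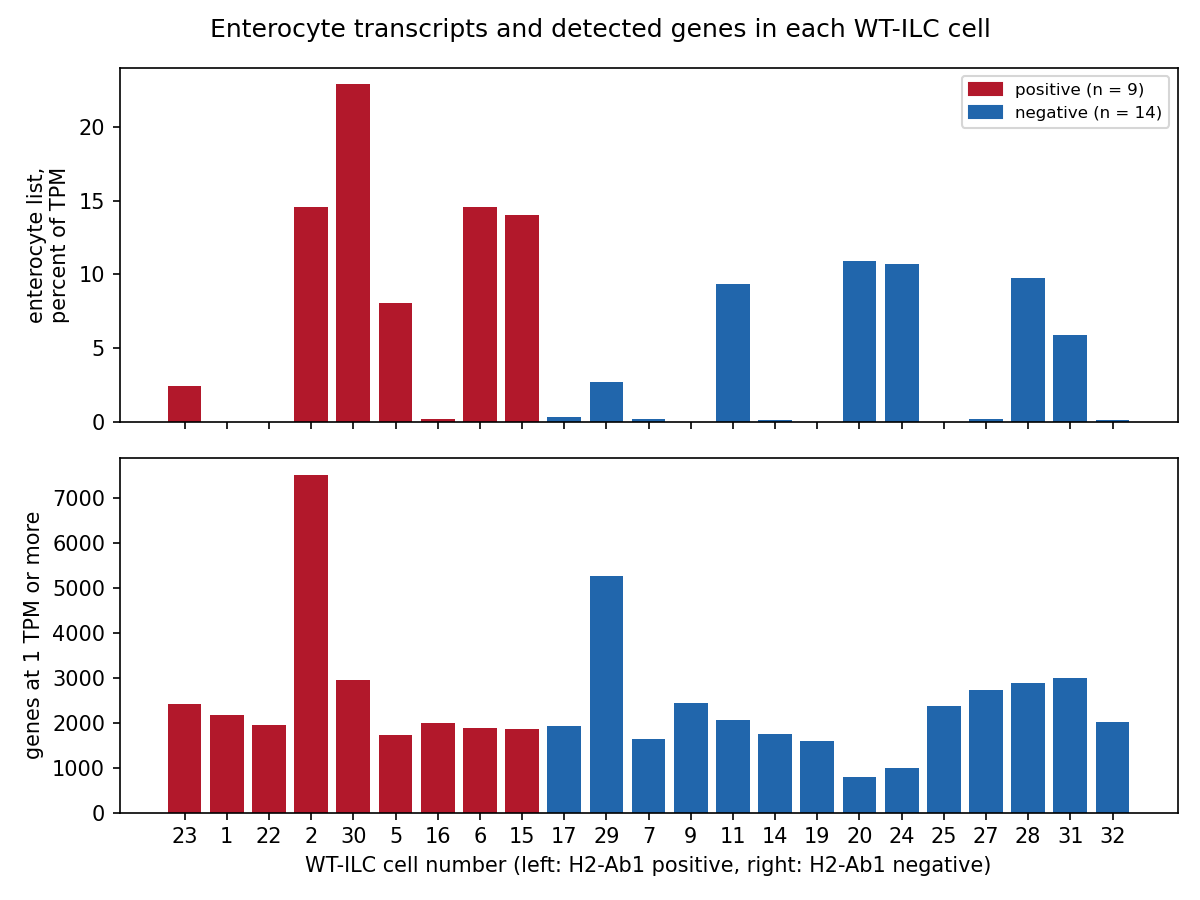
Share of TPM taken by the 25 enterocyte genes (top) and number of genes at 1 TPM or more (bottom) in each wild-type cell, positive cells at left and negative cells at right, each ordered by H2-Ab1. Cells 2, 30, 6 and 15 carry the largest epithelial shares, and cells 2 and 29 have the most genes.

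Markers of professional antigen-presenting cells were looked for in the same cells. Cd79a, Ms4a1 and Pax5, which define B cells, were listed at 0 in all 23 cells, while Cd79b had 803 TPM in positive cell 22 and 1802 TPM in negative cell 17. Flt3 was at 0 in all 23 cells, Itgax was detected in positive cell 1 only, at 18.04 TPM, and Csf1r in positive cell 2 only, at 11.8 TPM. Zbtb46, a dendritic cell marker, had 417 TPM in positive cell 22 and 15.3 in positive cell 2. In negative cells it had 1293 TPM in cell 25, 12.2 in cell 28, 6.45 in cell 9 and 2.98 in cell 27 (difference −0.01). Cd68 was below 1 TPM throughout. Other macrophage transcripts were present in the 2 cells richest in H2-Ab1: the complement gene C1qb had 1695 TPM in cell 23 and 555 in cell 1, against at most 42.7 TPM in negative cells, and the lysozyme gene Lyz2 had 4171 TPM in cell 1, against at most 205 TPM in negative cells. C1qc had 1268 TPM in cell 23 and C1qa 90.5 TPM in cell 1. Between 1 and 7 of the 23 measured macrophage and dendritic cell genes were detected per positive cell and between 1 and 5 per negative cell, and their summed level was 63.8 to 13203 TPM in positive cells (median 1182) and 15.6 to 10481 TPM in negative cells (median 1178). None of the 6 used was called, and their median difference was 1.38.

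Cells 1 and 23 were therefore left out in an alternative added after the values were seen. H2-Aa then differed by 3.54, H2-Eb1 by 2.01 and Il2rb by 2.47, while Cd74 stood at −0.65. In that setting 165 genes were higher and 145 lower by the log2 rule, and 144 higher and 39 lower by detection. The part of macrophage transcripts in the MHC class II levels was not tested. T cell genes varied: Cd3e was listed at 0 in every cell and Cd3d was detected in 1 positive cell at 14.6 TPM. Cd3g was detected in 5 of 9 positive and 6 of 14 negative cells (difference 0.86). Lat was found in 4 of 9 positive and 7 of 14 negative cells, with 776 TPM in positive cell 1 (difference −0.09). Lck was found in 4 of 9 positive and 4 of 14 negative cells, with 968 TPM in negative cell 14 (difference −0.22). Mast cell genes Tpsb2 and Cpa3 were at 0 throughout, and of the ILC2 genes Il5 and Il13 were at 0, with Gata3 in 4 of 9 positive cells and 1 of 14 negative cells at no more than 10.6 TPM.

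Calls in the gene lists for general cell functions are to be read beside the shares over all genes, 4.59% called higher and 2.67% called lower. Of 26 oxidative phosphorylation genes used, 2 were called higher (Cox8a at 2.05 and Uqcrh at 2.00) and 0 lower, 12 stood above 0 and 14 below, and their median difference was −0.33. Of 25 proteasome genes, 2 were higher (Psma6, and Psmb5 at 2.21) and 1 was lower (Psmd8 at −2.02), with 14 above 0, 11 below and a median of 0.26. Among 79 cytosolic ribosomal protein genes used, 2 were higher, Rpl32 at 2.77 and Rpl18 at 2.26, and 5 were lower, among them Rpl23a at −3.31, Rpl3 at −3.03 and Rps2 at −2.94, with 39 above 0, 40 below and a median of −0.00. Of 11 glycolysis genes used, 2 stood above 0 and 9 below, none was called, and the median was −0.79. Leaving out single cells gave glycolysis medians between −1.33 and −0.52, but with positive cells defined at 10 TPM of H2-Ab1 the median was 0.14. The calls of Cox8a, Uqcrh, Psmb5 and Psmd8 each ended when single cells were left out, for instance without cell 1.

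The same H2-Ab1 limit was applied to the R9-ILC cells, whose table was normalized separately. In wild type, 9 of 23 cells (39.1%, exact 95% interval 19.7 to 61.5%) were positive, against 41 of 67 R9-ILC cells (61.2%, 48.5 to 72.9%). R9-ILC titles come in a series without an ending and a series ending in 1, whose meaning the labels do not give. The share was 30 of 32 (93.8%) in the series without an ending and 11 of 35 (31.4%) in the other, so that the title series differed more from each other than wild type did from their total. H2-Ab1 at 100 TPM or more was found in 4 of 23 wild-type cells, 26 of 32 and 2 of 35. A batch behind the title series and a difference between the cells cannot be told apart.

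Within the R9-ILC series ending in 1, H2-Aa was detected in 3 of 11 positive and 0 of 24 negative cells (difference 1.38), H2-Eb1 in 2 of 11 and 0 of 24 (0.89), and Cd74 in 9 of 11 and 17 of 24 (2.27). The series without an ending had only 2 negative cells, and both held Cd74 and H2-Eb1. Ciita was detected in 4 of 32 and 1 of 35 cells of these series. Of the genes called higher in wild-type positive cells that were also detected in 5 or more R9-ILC cells of the series ending in 1, 72.8% had a difference above 0 there, beside 65.2% of all genes used. Of those called lower, 31.1% had a difference below 0, beside 34.8% of all genes. Counted the same way over all R9-ILC cells, the shares were 48.9% of genes called higher beside 48.7% of all genes. For genes called lower they were 50.5% beside 51.3%. In the series without an ending, with its 2 negative cells, they were 77.2% beside 77.2% for higher and 19% beside 22.8% for lower. In the series ending in 1, positive cells had a median of 3224 genes at 1 TPM or more, against 2263.5 in negative cells. The median difference over the genes used and detected in 5 or more of its cells was 0.50. Single differences there are to be read beside that upward shift. Psma6 differed by 2.92 there and Tsg101 by 2.40, while Il2rb differed by 0.59, Rnasek by −0.52, Il22 by −0.52, and Taldo1, lower in wild-type positive cells, by 1.00.

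**Figure D5:**
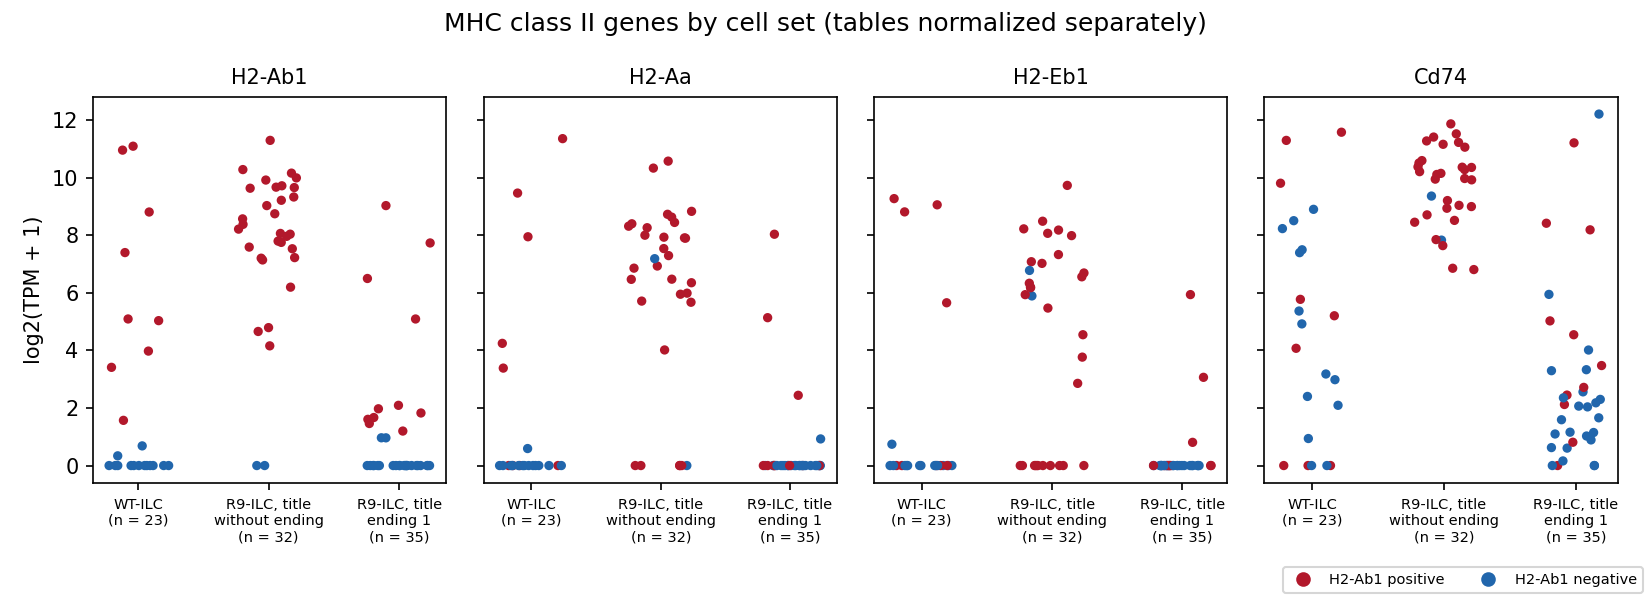
MHC class II genes as log2(TPM + 1) in 23 wild-type cells and in the R9-ILC title series of 32 and 35 cells, 1 point per cell, coloured by H2-Ab1 status; points are spread sideways to be visible, and the tables were normalized separately. Nearly all cells of the R9-ILC series without an ending are positive, and Cd74 is seen in cells of both colours.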

How the data were processed

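Per the labels' protocols, cDNA of single cells was amplified with Vazyme's Discover-sc WTA Kit V2, and the TruePrep kit of the same maker gave the libraries. The submitters' processing notes name bcl2fastq, HISAT2 2.1.0, SAMtools 0.1.19, StringTie 1.3.4 and the build mm10. The gene annotation is not given in the sources used here. The authors deposited TPM values for 23420 gene symbols, 1 table per group, each column summing to 1000000, which leaves sequencing depth unknown. No column of values was left unmapped.

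Wild-type profiles with the same cell number were averaged. H2-Ab1 at 1 TPM or more made a cell positive. Genes detected (1 TPM or more) in at least 5 of 23 cells, without H2-Ab1, were compared by the difference in mean log2(TPM + 1), positive minus negative. This scale has a pseudocount of 1 TPM and understates differences of low genes. A gene was called at a difference of at least 2, or, by detection, at shares at least 40 percentage points apart. Since the wild-type cells count as 1 sample, no test was run. Intervals on shares are exact (Clopper-Pearson, 95%). Doublets were not called, but 1 alternative drops cells with more than 4000 genes. The calculation was tested on simulated data. The members, lists and limits were chosen with earlier results of these data known.

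Named genes were all MHC class II members and regulators, the 15 largest differences upward and downward, the members of other lists with the largest differences (at most 4 per list) and the defining markers of other cell types. The 15 had to be detected in 60% or more of the higher group's cells and to keep their sign in leave-one-out and in profiles with the title ending 2, with predicted and ribosomal protein genes excluded. Eif1a, the Rik genes, Il17re, Il7r, Id2, Ctss, Rpl18 and the cell values given beside the lists were picked after their values were seen. Some genes that the rule names are left out of the text. Gene coordinates are from the GENCODE annotation of GRCm38, the same build as mm10. Alternatives varied the H2-Ab1 limit, joining, cells, pseudocount, scaling, filters, detection limit and summary. Work was done in Python 3.11.15 with pandas 2.3.3, numpy 2.4.6 and scipy 1.17.1, and figures with matplotlib 3.10.9.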

Additional observations from a re-analysis of the deposited data

Results flagged for a closer look

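Within the 9 positive cells, 41 values (cell measures, MHC class II genes and the genes with the largest differences) were checked for a cell far from the others, and 3 stood out. The rule marks about 1 in 20 by chance only for normally distributed values. These values hold many zeros, and a gene above 0 in 1 of the 9 cells, such as H2-Oa, is always marked. The number expected by chance is therefore not known. Cell 2 had 7518 genes at 1 TPM or more, against 1726 to 2942 in the other 8 positive cells. H2-Oa had 724 TPM in cell 22 and was listed at 0 in the other 8. Rnf4, a ubiquitin ligase gene lower in positive cells by 2.87 on the log2 scale, had 762 TPM in cell 23, against 0 to 20.6 TPM in the others.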

How the results depend on the processing

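Results were recomputed in 21 other settings and with each of the 23 cells left out in turn. The difference of H2-Aa was above 2 throughout (2.36 to 8.60), and 42 of 49 called genes that are named kept their sign throughout. That count is no independent check, since many of these genes were picked for keeping their sign in some of the same runs. With single cells left out and with title ending 2 alone, all 186 genes called higher and 107 of 108 called lower kept their sign. The counts of genes did not hold. With an H2-Ab1 limit of 10 TPM, 486 genes were higher and 44 lower, and 170 were higher by detection; at 100 TPM, with 4 positive cells, 1080 were higher, and 389 higher and 70 lower by detection, with an MHC class II median of 5.84. Leaving out cells with H2-Ab1 from 1 to under 10 TPM gave 403 higher, and 160 by detection. With all 31 profiles separate 39 were lower, and 1 by detection; without cells of 2 profiles 471 were higher and 196 lower, and 213 and 70 by detection; with title ending 2 alone 168 were lower, and 41 by detection. Without cells of over 4000 genes 29 were lower by detection. Keeping cells of 1726 to 5261 genes gave 77 higher and 537 lower, and 189 lower by detection. A pseudocount of 0.1 TPM gave 455 higher and 356 lower, one of 10 TPM 41 and 14, medians 405 and 268, and ratios of mean TPM 513 and 858. A filter of 10 cells gave 120 higher, and 34 higher and 11 lower by detection, and a detection limit of 10 TPM gave 38 higher by detection. Of the settings added after seeing the data, leaving out cells 2, 16, 29 and 32 gave 238 lower, and 157 higher and 78 lower by detection. Leaving out cells 1 and 23 gave 144 higher and 39 lower by detection. Leaving out cells whose top gene held 10% of TPM or more gave 347 higher, and 134 higher and 59 lower by detection. Only the 100 TPM limit turned called and named genes round: Chchd10 to −0.73, Ndufc2 to −0.17, Rnf4 to 0.12, Il22 to −1.05, Fabp1 to −0.71 and Fabp2 to −0.13. With each cell left out, higher genes numbered 140 to 287, lower genes 90 to 202, higher by detection 66 to 159 and lower by detection 10 to 43. In the same runs the MHC class II median was −0.20 to 2.59, the enterocyte median 0.74 to 2.37, and the median number of genes per cell differed by −59.5 to 60.5. In some of these runs H2-Aa or H2-Oa, each detected in 5 cells, fell under the filter and left the MHC class II list. The cause of the other shifts was not tested. No paired analysis was possible because the compared cells share no replicate numbers and no test was run. With unknown depth, a gene listed at 0 cannot be called absent.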
